A study of Mus musculus with 13 samples.

Results

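Genes of the interstitial matrix and of the matricellular proteins were followed across the glomerular transcriptome of experimental membranous nephropathy (MN), a kidney disease in which antibodies bind antigens on podocytes, the epithelial cells of the glomerular filter. The list held 44 genes named by symbol. It had 7 fibril-forming collagen genes, 10 other collagen genes, 12 genes of elastic fibres and microfibrils, 10 genes of adhesive and matricellular glycoproteins and 5 proteoglycan genes. Of these, 38 reached a level (TPM, a length-corrected share of a library's transcripts) of at least 1 in at least 4 of the 13 libraries. Of all 35967 symbols measured, 14322 did so. Col14a1, Fbln1, Mfap4, Mfap5, Vcan and Lum did not, and were not tested. Col5a3 passed with 1 control, 1 day 1 and 4 day 5 libraries at or above 1 TPM, so its passing rested on the group in which it was high.

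All mice were male wildtype Balb/c. By intraperitoneal injection, control mice (n = 5) had received 2 mg of preimmune rabbit IgG and MN mice 2 mg of rabbit IgG against THSD7A, a podocyte membrane protein. Glomeruli were collected 1 day (n = 4) or 5 days (n = 4) after the anti-THSD7A IgG and sequenced as bulk RNA, 1 library per labelled sample. The control group mixed mice collected after 1 day and after 5 days, and the day of each is not given. The antibody was made in rabbits and given passively, which limits the model to the effects of transferred antibody. The study's methods give an age of 14 to 15 weeks for mice at induction of MN.

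Interstitial matrix lies between cells rather than in the sheet-like basement membrane. Fibril-forming collagens assemble from 3 chains into ropes that carry tension, and type V collagen sits inside such fibrils and sets their width. Elastic fibres combine an elastin core with fibrillin microfibrils, which also hold latent TGF-beta. Matricellular proteins such as SPARC, tenascin C and the thrombospondins bear little load and instead modulate how cells attach and respond to matrix. The healthy glomerulus holds little fibrillar collagen, and its mesangium, the stalk between the capillaries, holds most of the interstitial-type matrix it has.

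The libraries carried the defining genes of glomeruli. All 8 podocyte, 6 mesangial and 7 glomerular endothelial markers passed the filter, and the summed podocyte markers lay between 7578 and 10222 TPM in controls. Tubular RNA was present in unequal amounts. The summed proximal tubule markers reached 2265 to 8464 TPM in controls, 3999 to 7363 TPM on day 1 and 2948 to 3571 TPM on day 5, and the highest value belonged to control 5. The deposited values do not give sequencing depth, so no interval based on counts was computed. In bulk RNA, fewer cells of a type and less RNA per cell cannot be told apart.

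A few abundant genes dominated the list. Igfbp7, which encodes a secreted insulin-like growth factor binding protein, and Sparc, which encodes a collagen-binding matricellular glycoprotein, together made up 73.3% to 75.7% of the summed TPM of all 44 genes in controls. The share was 74.3% to 75.4% on day 1 and 75.7% to 78.4% on day 5. By control mean, 8 members lay at 100 TPM or above, 16 between 10 and 100 TPM and 14 below 10 TPM. The summed level of the list was 7789 to 8829 TPM in controls, 8355 to 8682 TPM on day 1 and 10239 to 11488 TPM on day 5. All 4 day 5 sums lay above all control and day 1 sums, and Igfbp7 and Sparc carried most of that distance. The coefficient of variation of a member within controls had a median of 17.6%, and ranged from 3.4% to 65.3%.

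On day 1 no member was called. Calls required a Benjamini-Hochberg adjusted p-value of limma below 0.05 and an absolute difference above 0.5 in log2(TPM + 0.5). Across all tested genes 0.0559% were called higher and 0.0349% lower on day 1. At an unadjusted p below 0.05, 1 member passed, beside 1799 of all 14322 tested genes. Among the members 25 of 38 estimates were positive, with a median log2 difference of 0.07, and over all tested genes 49.2% of estimates were positive. Without control 5 the numbers were 20 of 38 and 0.03, and with a tubular marker score as a covariate 31 of 38 and 0.22. The libraries of 1 member did not overlap with control, in the higher direction, against 0.908% of all genes, and no member lay wholly below control, against 3.32% of all genes. That member was Thbs2. Overlap is given on the deposited TPM. After scaling between libraries Sparc was also wholly above control on day 1, so 2 members were, against 1.52% of all genes.

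On day 5, 6 of the 38 members (15.8%) rose and none fell, against 2.42% of all tested genes called higher and 0.789% called lower. They were the type V collagen chains Col5a3 and Col5a2, the matricellular genes Tnc, Thbs2 and Sparc, and the latent TGF-beta binding protein gene Ltbp1. Col5a3 entered the test through its day 5 libraries. With 1 TPM required in every library it was not tested, and the other 5 stayed called. Estimates were positive for 34 of 38 members, with a median log2 difference of 0.35, while 49.3% of all genes had a positive estimate and their median was -0.00322. Libraries lay wholly above control for 11 members (28.9%), against 5.07% of all genes, and wholly below for 1 member (2.63%), against 5.71%. On scaled values Eln joined the first group (12 members, against 6.38% of all genes) and no member lay wholly below (against 4.36%). Control 5 was the lowest control library for 27 of the 38 members, and it also had the lowest summed markers of mesangial cells (2046 TPM), arterioles (640 TPM), fibroblasts (475 TPM) and leukocytes (26.3 TPM) among controls. Without it, 5 members were called, 32 of 38 estimates were positive and the median log2 difference was 0.25.

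**Figure D1:**
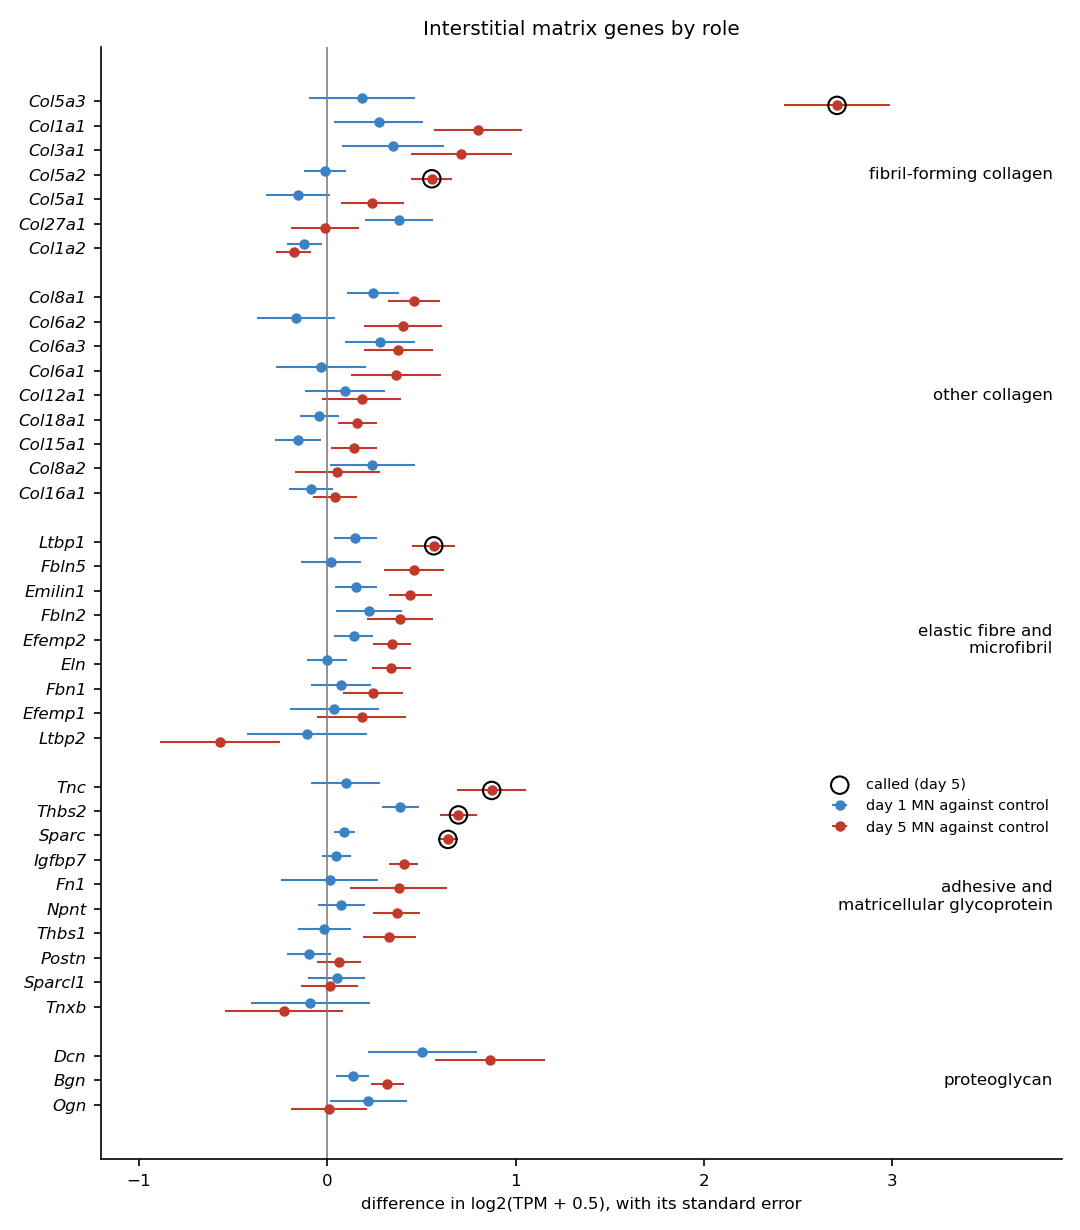
Difference from control in log2(TPM + 0.5) for the 38 tested members, grouped by role and ordered by the day 5 estimate. Points are limma estimates for day 1 MN (blue, n = 4) and day 5 MN (red, n = 4) against control (n = 5), bars are standard errors, and black rings mark the 6 members called on day 5. Most red points lie to the right of 0, and Col5a3 stands far right at 2.71. Most blue points lie nearer to 0 than the red point of the same gene, with exceptions such as Col27a1 and Col8a2.

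The promoters of 3 of these genes are shown to give the sequence at the start of a transcript with the largest fold (Col5a3), of the most abundant called transcript (Sparc) and of a member that was separate from control on both days (Thbs2). Each is 300 bases from RefSeq, 250 before and 50 after the annotated gene start, and was placed on GRCm39 by an exact match at a single position of its chromosome, on the minus strand. Sequences run 5′ to 3′. Capitals mark matches on either strand to CCAAT (the CCAAT box), GGGCGG (the GC box) and TATAAA (the TATA box). TGANTCA (the AP-1 element) and GGAATG (the TEAD element) were also searched.
Col5a3, chr9:20726314-20726613: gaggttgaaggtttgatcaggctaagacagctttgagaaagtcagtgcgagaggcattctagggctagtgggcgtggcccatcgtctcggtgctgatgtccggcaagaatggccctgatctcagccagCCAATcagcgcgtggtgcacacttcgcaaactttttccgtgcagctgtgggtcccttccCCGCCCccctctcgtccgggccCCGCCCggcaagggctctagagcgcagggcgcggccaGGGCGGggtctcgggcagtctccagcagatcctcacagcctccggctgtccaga
Sparc, chr11:55310857-55311156: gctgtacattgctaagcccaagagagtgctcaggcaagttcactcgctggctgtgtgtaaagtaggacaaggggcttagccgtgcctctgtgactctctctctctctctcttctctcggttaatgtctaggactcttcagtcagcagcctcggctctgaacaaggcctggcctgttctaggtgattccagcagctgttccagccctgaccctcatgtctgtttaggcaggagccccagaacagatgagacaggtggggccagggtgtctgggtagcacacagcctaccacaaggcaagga
Thbs2, chr17:14914475-14914774: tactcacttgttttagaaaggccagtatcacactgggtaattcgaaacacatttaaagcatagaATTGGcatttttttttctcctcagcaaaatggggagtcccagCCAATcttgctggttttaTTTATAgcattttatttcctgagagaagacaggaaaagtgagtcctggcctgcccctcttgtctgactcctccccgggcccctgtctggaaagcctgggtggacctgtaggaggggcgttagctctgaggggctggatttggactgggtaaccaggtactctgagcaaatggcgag
The Col5a3 window held 1 CCAAT match 122 bases upstream of the start and 3 GC box matches 63, 41 and 4 bases upstream. The Thbs2 window held CCAAT matches 186 and 144 bases upstream and a TATA box match 126 bases upstream. The Sparc window, which lies inside the GENCODE bounds of the gene, held none of the 5 motifs. Among all 32851 RefSeq windows of this length, CCAAT occurred in 37.4%, GGGCGG in 35.7%, TATAAA in 13.6%, TGANTCA in 7.81% and GGAATG in 14.7%. RefSeq windows were matched for 30 tested members, of which 9 held CCAAT, 19 GGGCGG, 5 TATAAA, 3 TGANTCA and 4 GGAATG. A member was counted if any of its windows matched, while the shares above are per window over all RefSeq genes. The counts and the shares are therefore not directly comparable. Of the 5 called members with a window, 3 held CCAAT, 2 GGGCGG and 2 TATAAA, and none held TGANTCA or GGAATG.

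Col5a3 showed the largest difference of any member. It encodes the alpha-3 chain of type V collagen and lies on the minus strand of chr9:20681337-20726418 (GRCm39, GENCODE), where no exon of another gene overlaps its own. Control libraries 1 to 5 held 0.826, 1.13, 0.832, 0.640 and 0.731 TPM. Day 1 libraries 1 to 4 held 0.970, 0.848, 0.973 and 1.11 TPM. Day 5 libraries held 10.6, 12.9, 7.59 and 3.77 TPM. All 4 day 5 libraries stood above every other library, and they differed among themselves by more than those of the other groups did. The log2 difference on day 5 was 2.71 ± 0.28 (SE), a 6.52-fold rise on the log2(TPM + 0.5) scale (limma, adjusted p = 7.96e-05). Against day 1 the log2 difference was 2.52 ± 0.30 (adjusted p = 0.000304), while day 1 itself differed from control by 0.19 ± 0.28 (adjusted p = 0.836). Col5a3 entered the test through its day 5 libraries, so these p-values are not separate from the filter.

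Col5a2, the alpha-2 chain gene of the same collagen, rose by less. It lies at chr1:45412554-45542442, minus strand. Controls held 14.2, 16.9, 12.9, 15.6 and 10.3 TPM, day 1 libraries 13.0, 11.9, 14.7 and 13.5 TPM, and day 5 libraries 18.5, 20.3, 21.7 and 19.7 TPM. The day 5 libraries lay above all others, and control and day 1 libraries overlapped. The log2 difference was 0.55 ± 0.11 on day 5 (adjusted p = 0.00810) and 0.57 ± 0.12 between day 5 and day 1 (adjusted p = 0.0191). Without control 5, the lowest library, the day 5 estimate was 0.46 and no longer reached the fold threshold. Col5a1, the gene of the most common chain of this trimer, had 13.4 to 19.6 TPM in controls, 11.3 to 16.9 TPM on day 1 and 15.3 to 27.2 TPM on day 5, with a log2 difference of 0.24 ± 0.17 on day 5 (adjusted p = 0.480). Since TPM is per length, chains can be set side by side. Col5a3 made up 1.86% to 3.19% of the summed TPM of the 3 type V chains in controls, 2.89% to 3.83% on day 1 and 9.73% to 24.5% on day 5. This share was chosen after its values were seen and was not tested.

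**Figure D2:**
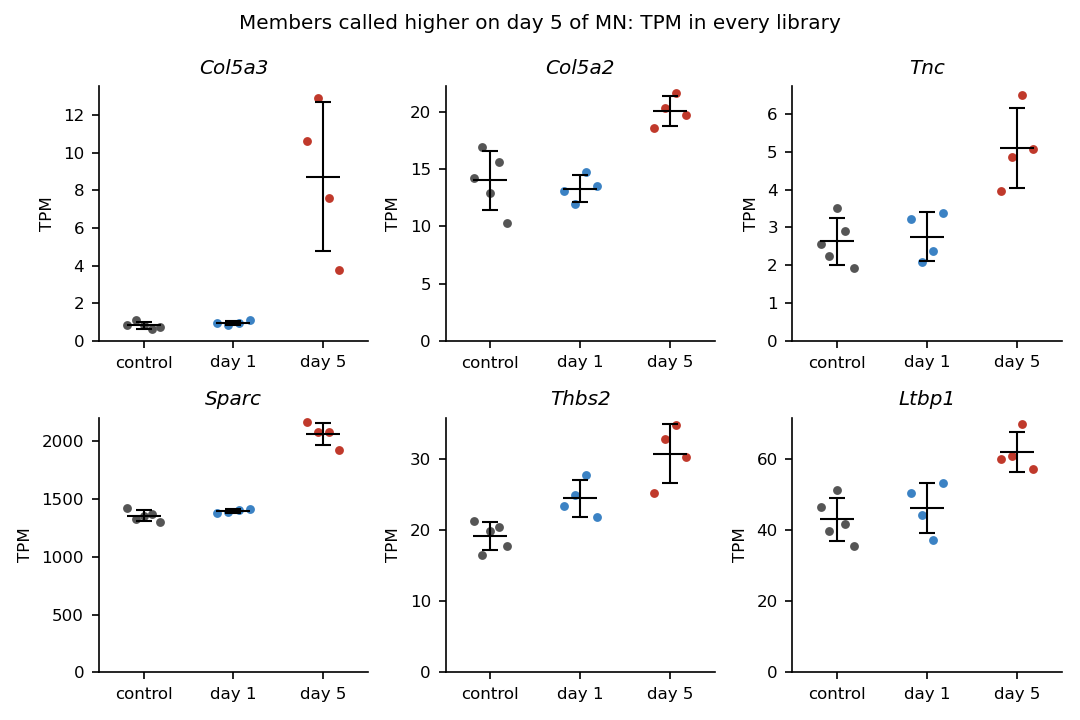
TPM of the 6 members called higher on day 5, 1 point per library, with the group mean (horizontal line) and SD (bars) for control (n = 5), day 1 MN (n = 4) and day 5 MN (n = 4). In each panel the 4 day 5 libraries lie above all control libraries, and the day 1 libraries of Col5a3, Col5a2, Tnc, Sparc and Ltbp1 overlap with control.

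The other fibril-forming collagens did not pass the test. Col1a1 encodes the alpha-1 chain of type I collagen, of which the usual trimer has 2, and Col1a2 the alpha-2 chain. Col1a1 held 2.33, 1.51, 1.90, 2.34 and 1.30 TPM in controls, 1.78, 1.42, 3.66 and 2.66 TPM on day 1 and 3.55, 2.76, 4.79 and 3.12 TPM on day 5. Day 5 lay wholly above control and overlapped with day 1. The log2 difference was 0.80 ± 0.23 (adjusted p = 0.0641). Col1a2 held 122.4, 101.0, 101.5, 107.8 and 115.3 TPM in controls, 101.7, 77.2, 103.6 and 110.2 TPM on day 1 and 85.1, 94.5, 100.7 and 97.1 TPM on day 5. Its day 5 libraries lay below control by a narrow gap in deposited TPM and overlapped with it on scaled values, where the highest day 5 value was 97.01 and the lowest control value 96.97. Its log2 difference was -0.18 ± 0.09 (adjusted p = 0.315).

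The chains of a trimer stood at very unequal transcript levels. Col1a1 was at 1.13% to 2.17% of the TPM of Col1a2 in controls and at 2.92% to 4.75% on day 5. In type VI collagen, a beaded microfibril of 3 different chains, Col6a1 and Col6a2 were at 1.16 to 1.99 TPM in controls beside 19.4 to 38.2 TPM of Col6a3. These ratios were noticed in the data and carry no test. Col3a1, the gene of the single chain of type III collagen, was at 1.60 to 3.67 TPM in controls and 2.20 to 5.31 TPM on day 5 (log2 difference 0.71 ± 0.27, adjusted p = 0.154). Exons of Col1a2 and Col3a1 overlap those of other annotated genes, with which reads could be shared. The same is true of 25 of the 44 listed genes, Col5a1 among them, and it is not named for each.

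**Figure D3:**
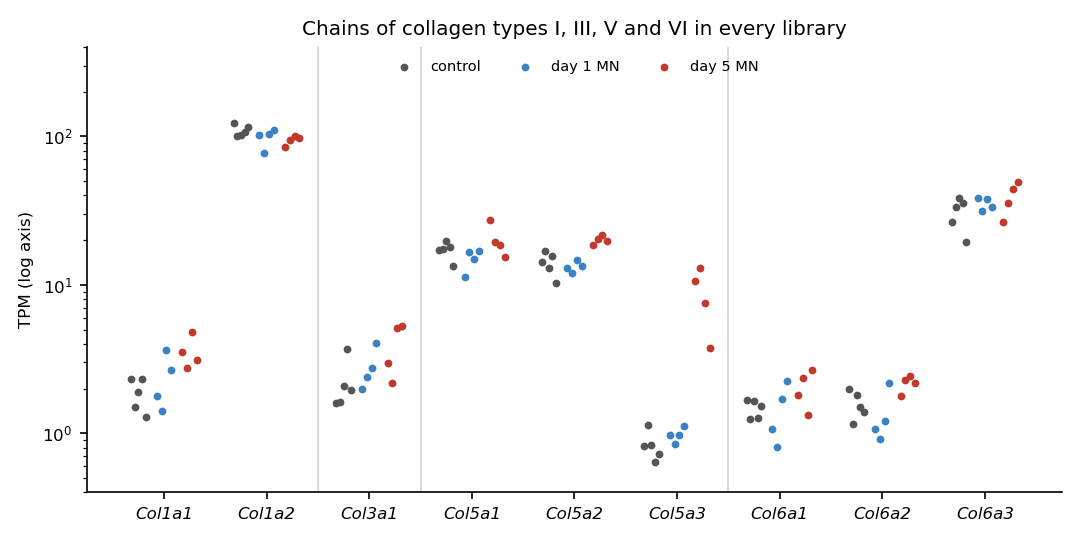
TPM of chains of collagen types I, III, V and VI on a log axis, 1 point per library, in grey for control (n = 5), blue for day 1 MN (n = 4) and red for day 5 MN (n = 4). Col1a2 lies between 77.2 and 122.4 TPM and Col1a1 between 1.30 and 4.79 TPM in every group, and Col5a3 leaves the 0.640 to 1.13 TPM range only on day 5.

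None of the 9 tested genes of other collagens was called on day 5, although all 9 estimates were positive, with a median log2 difference of 0.18. At an unadjusted p below 0.05, 1 of them passed in limma, beside 2874 of all 14322 tested genes. Their libraries overlapped with control in every case. Col18a1, whose product carries the endostatin fragment and lies near basement membranes, was the most abundant of them. It held 295.7, 233.5, 282.5, 286.7 and 274.8 TPM in controls, 252.9, 248.7, 222.8 and 312.6 TPM on day 1 and 290.8, 325.9, 313.7 and 266.9 TPM on day 5. All 3 groups overlapped (log2 difference on day 5 0.16 ± 0.10, adjusted p = 0.437). The highest estimate was that of Col8a1, a short-chain network collagen gene, at 0.46 ± 0.14 (adjusted p = 0.0704). Col8a2, Col12a1, Col15a1, Col16a1 and the type VI chains had estimates between 0.04 and 0.40.

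Among the 9 tested genes of elastic fibres and microfibrils, 1 rose on day 5, none fell and 8 estimates were positive, with a median log2 difference of 0.34. Over all tested genes 2.42% were called higher and 0.789% lower, and 49.3% of estimates were positive. Ltbp1 was the gene that rose. Its product holds latent TGF-beta in the matrix, and it lies at chr17:75312519-75699507, plus strand. Controls held 46.4, 39.7, 51.2, 41.8 and 35.4 TPM, day 1 libraries 50.3, 44.1, 37.2 and 53.2 TPM and day 5 libraries 59.99, 60.8, 69.8 and 57.0 TPM. The day 5 values exceeded all others. The log2 difference was 0.57 ± 0.11 against control (adjusted p = 0.00983) and 0.42 ± 0.12 against day 1 (adjusted p = 0.104).

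Emilin1, an elastic fibre glycoprotein gene, was the most abundant of this role. Controls held 187.7, 223.5, 185.7, 178.5 and 142.9 TPM, day 1 libraries 196.5, 242.3, 182.8 and 169.1 TPM and day 5 libraries 248.9, 229.8, 252.6 and 233.6 TPM. The day 5 libraries were separate from control but overlapped with day 1. Its log2 difference of 0.44 ± 0.11 (adjusted p = 0.0360) passed the p-value threshold and not the fold threshold. Eln, the elastin gene, held 76.9, 79.5, 71.8, 77.7 and 54.2 TPM in controls, 68.3, 75.9, 68.3 and 64.0 TPM on day 1 and 98.5, 87.3, 91.6 and 77.0 TPM on day 5. Its day 5 libraries lay above day 1 and overlapped with control in deposited TPM, and the reverse held on scaled values (log2 difference from control 0.34 ± 0.10, adjusted p = 0.0783). Fbln5, which encodes a fibulin needed for elastic fibre assembly, held 45.1, 39.8, 39.4, 42.9 and 27.1 TPM in controls, 33.6, 38.6, 37.8 and 40.8 TPM on day 1 and 49.6, 45.4, 76.1 and 41.1 TPM on day 5. Day 5 lay above day 1 only in deposited TPM, was led by replicate 3 and overlapped with control (0.46 ± 0.16, adjusted p = 0.116).

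The remaining 5 genes of this role did not pass. Fbn1, Fbln2, Efemp1 and Efemp2 had estimates from 0.18 to 0.39. Ltbp2 was the lowest, at 0.547 to 2.56 TPM in controls and 0.188 to 0.846 TPM on day 5, with a log2 difference of -0.57 ± 0.32 (adjusted p = 0.351), and it passed the filter through 2 control and 2 day 1 libraries.

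The 10 genes of adhesive and matricellular glycoproteins held 3 of the 6 called members, with none falling, 9 positive estimates and a median log2 difference of 0.37 on day 5. Over all tested genes 2.42% were called higher and 0.789% lower, and 49.3% of estimates were positive. Sparc had the smallest coefficient of variation of any member among controls, 3.45%. It lies at chr11:55285317-55314067, minus strand. Controls held 1423, 1328, 1348, 1370.4 and 1299 TPM, day 1 libraries 1377, 1387, 1406 and 1409 TPM, and day 5 libraries 2159, 2079.8, 2078 and 1924 TPM. Day 5 lay far above the other libraries, and day 1 lay inside the control range in deposited TPM and above it on scaled values (1397 to 1429 beside 1275 to 1390.4). The mean rose from 1354 ± 46.7 TPM (SD, n = 5) in controls to 2060.2 ± 98.2 TPM (SD, n = 4), a log2 difference of 0.64 ± 0.06 (adjusted p = 3.02e-05). The difference between day 5 and day 1 was 0.55 ± 0.06 (adjusted p = 0.000138).

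Thbs2, which encodes thrombospondin 2, a matricellular inhibitor of vessel growth, was separate from control on day 1 on both scales. It lies at chr17:14885761-14914528, minus strand. Controls held 21.2, 16.6, 19.95 and 20.5 TPM in replicates 1 to 4 and 17.8 TPM in replicate 5. Day 1 libraries held 23.4, 24.9, 27.8 and 21.8 TPM and day 5 libraries 25.2, 32.8, 34.8 and 30.3 TPM. Both MN groups lay above control and overlapped with each other. The log2 difference was 0.39 ± 0.10 on day 1 (adjusted p = 0.178) and 0.70 ± 0.10 on day 5 (adjusted p = 0.000844). The step from day 1 to day 5, 0.31 ± 0.10, did not pass (adjusted p = 0.159). Thbs1, the gene of its close relative, was at 19.5 to 29.6 TPM in controls and 26.9 to 33.0 TPM on day 5 (0.33 ± 0.14, adjusted p = 0.208).

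Tnc encodes tenascin C, a matricellular glycoprotein low in most adult tissues. It lies at chr4:63878014-63965443, minus strand, where an annotated gene on the opposite strand overlaps its exons. Controls held 2.57, 2.24, 3.52, 2.91 and 1.92 TPM, day 1 libraries 3.21, 2.07, 2.37 and 3.39 TPM and day 5 libraries 3.96, 4.88, 6.51 and 5.07 TPM. All day 5 values exceeded those of the other groups. The log2 difference was 0.87 ± 0.18 against control (adjusted p = 0.0117) and 0.77 ± 0.19 against day 1 (adjusted p = 0.0537).

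Igfbp7 was the most abundant member. Controls held 5089, 5131, 5294, 4726 and 4596 TPM, day 1 libraries 5145, 4843, 4835 and 5051 TPM and day 5 libraries 6817, 6847, 6132 and 5898 TPM. The lowest day 5 value exceeded the highest of the other groups. The log2 difference of 0.41 ± 0.08 (adjusted p = 0.00629) passed the p-value threshold and not the fold threshold. Exons of Igfbp7 overlap those of Polr2b on the opposite strand. Npnt, which encodes nephronectin, a basement membrane ligand of integrin alpha-8 beta-1, held 353.0, 243.9, 362.9, 330.3 and 400.9 TPM in controls, 334.5, 305.4, 348.3 and 376.3 TPM on day 1 and 387.0, 453.9, 421.0 and 423.1 TPM on day 5. Its day 5 libraries lay above day 1 and overlapped with control (0.37 ± 0.12, adjusted p = 0.107).

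The other members of this role showed no call. Fn1, which encodes fibronectin, was at 3.46 to 8.77 TPM in controls and 5.81 to 14.2 TPM on day 5 (0.38 ± 0.26, adjusted p = 0.458). Postn, which encodes periostin, was at 42.2 to 55.6 TPM in controls and 44.6 to 52.2 TPM on day 5 (0.06 ± 0.12, adjusted p = 0.832). Sparcl1, the gene of the nearest relative of SPARC, had 116 to 222 TPM in controls and 136 to 217 TPM on day 5, with a log2 difference of 0.01 ± 0.15 (adjusted p = 0.980). Tnxb had 9.19 to 19.2 TPM in controls and 6.83 to 12.7 TPM on day 5 (-0.23 ± 0.31, adjusted p = 0.761).

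**Figure D4:**
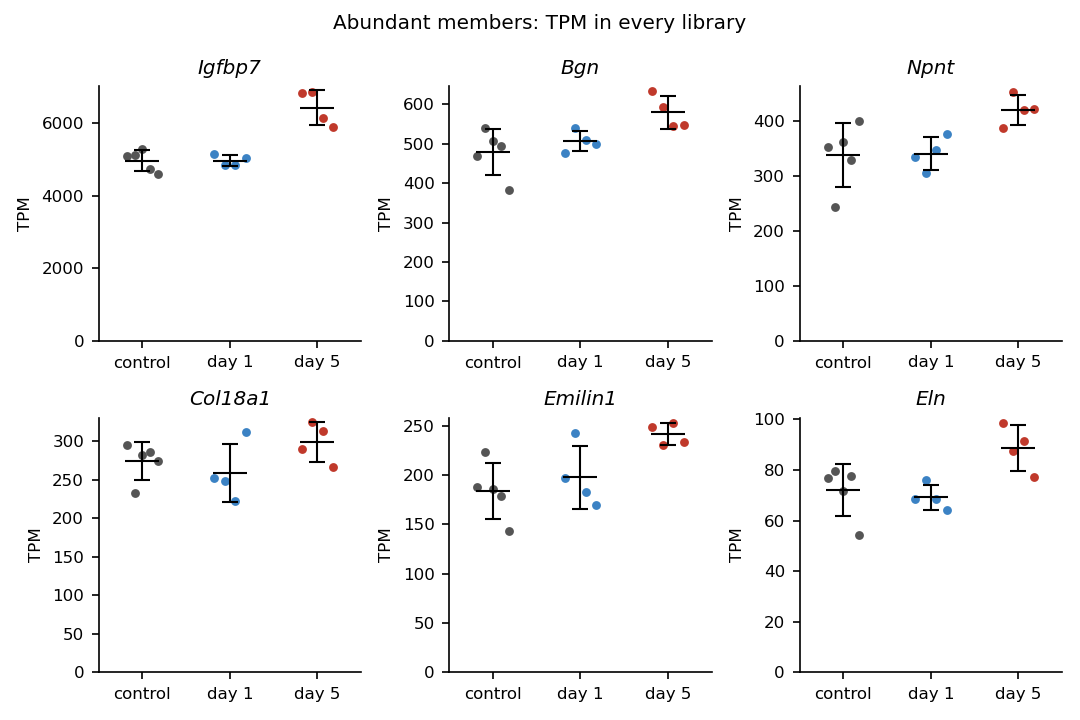
TPM of 6 abundant members, none of them called, 1 point per library, with the group mean (horizontal line) and SD (bars) for control (n = 5), day 1 MN (n = 4) and day 5 MN (n = 4). The day 5 libraries of Igfbp7, Bgn and Emilin1 lie above all control libraries, and those of Npnt, Col18a1 and Eln overlap with control. Sparcl1 and Col1a2, also not called and more abundant than Eln, are not shown (log2 differences on day 5 0.01 and -0.18).

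Of 5 proteoglycan genes 3 were tested with limma, and none was called, while 2 passed at an unadjusted p below 0.05 on day 5. Of all 14322 tested genes 2874 did so. Bgn, which encodes the small leucine-rich proteoglycan biglycan, held 469.7, 539.95, 506.3, 494.1 and 382.9 TPM in controls, 477.7, 540.2, 508.3 and 500.3 TPM on day 1 and 633.8, 592.2, 545.0 and 548.1 TPM on day 5. Day 5 lay above control. It also lay above day 1 by a narrow margin in deposited TPM, but on scaled values it overlapped with day 1. Its log2 difference of 0.32 ± 0.09 (adjusted p = 0.0498) was below the fold threshold. Dcn, which encodes decorin, held 1.10, 0.632, 1.83, 1.38 and 0.298 TPM in controls, 2.16, 0.913, 1.35 and 1.82 TPM on day 1 and 2.11, 2.04, 2.09 and 2.09 TPM on day 5. Day 5 lay above control and overlapped with day 1 (0.86 ± 0.29, adjusted p = 0.108). Ogn, the osteoglycin gene, was at 4.44 to 6.51 TPM in controls and 3.73 to 8.28 TPM on day 5.

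Between the MN groups 3 members were higher on day 5 than on day 1 and none lower, namely Col5a3, Col5a2 and Sparc. With 1 TPM required in every library Col5a3 was not tested, and Col5a2 and Sparc stayed called. Of all tested genes 1.41% were called higher in this comparison and 0.398% lower. The day 5 libraries of 10 members lay wholly above day 1, against 6.12% of all genes, and those of no member lay wholly below, against 4.93%. The 10 were Col5a2, Col5a3, Eln, Fbln5, Ltbp1, Tnc, Sparc, Npnt, Igfbp7 and Bgn. On scaled values Eln, Fbln5 and Bgn overlapped, which left 7 members above (against 5.3% of all genes) and none below (against 5.25%). This comparison is also the test of whether the day 5 and day 1 differences from the shared controls were unequal. Tnc, Ltbp1 and Thbs2 passed against control on day 5 and did not pass here. With the tubular marker score, which was higher on day 1 than on day 5, as a covariate, the difference of Col5a2 was 0.30 on the log2 scale (adjusted p = 0.5004), and Col5a3 and Sparc stayed called.

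Genes that act on the interstitial matrix were counted from 4 further lists. Of all tested genes 2.42% were called higher on day 5 and 0.789% lower, and 2874 of 14322 passed at an unadjusted p below 0.05. Of 23 tested matrix receptor genes (integrins, syndecans, discoidin receptors and others) 1 rose on day 5 and none fell, with a median log2 difference of 0.14. The gene was Cd44, which encodes a hyaluronan receptor, at 0.88 ± 0.19. Of 20 tested genes of collagen maturation 2 rose and none fell, with a median of 0.17. These were Loxl2, which encodes a lysyl oxidase that crosslinks collagen, at 1.01, and Plod2, which encodes a collagen lysyl hydroxylase, at 0.71. None of 18 genes of TGF-beta signalling and its targets was called by limma on day 5 (median 0.09, 4 at an unadjusted p below 0.05), although 1 member, Ltbp1, encodes a latent TGF-beta binding protein.

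Genes of the glomerular basement membrane gave the closest comparison. On day 5, 5 of 19 (26.3%) rose, none fell and all 19 estimates were positive, with a median log2 difference of 0.39, beside 6 of 38 and a median of 0.35 among the interstitial matrix genes. Of all tested genes 2.42% were called higher on day 5. Nid2 (0.91), Col4a1 (0.85), Col4a2 (0.85) and Col4a5 (0.71) had the largest called differences. Lamc1 was the fifth. On day 1 limma called none of the 19, and 1 passed at an unadjusted p below 0.05, beside 1799 of all 14322 tested genes. The difference between the lists was not tested.

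Marker genes of other cell types also varied between groups. Bulk RNA does not show in which cells a marker changed, so these values do not measure the amount of a cell type. For the counts below, 0.0559% of all tested genes were called higher on day 1 and 2.42% on day 5. At an unadjusted p below 0.05, 1799 of 14322 tested genes passed in limma on day 1 and 2874 on day 5. Summed arteriolar smooth muscle and renin cell markers were 640 to 1069 TPM in controls, 856 to 1140 TPM on day 1 and 1085 to 1648 TPM on day 5, so that day 5 lay wholly above control. Of these 7 markers 1 was called on day 5, Tagln (log2 difference 1.30), and 2 passed in limma at an unadjusted p below 0.05. All 7 estimates were positive, beside 49.3% over all tested genes. Positive estimates were also found for 6 of 7 glomerular endothelial, 5 of 5 leukocyte and 4 of 8 podocyte markers. The 6 mesangial markers summed to 2046 to 2874 TPM in controls, 2394 to 2591 TPM on day 1 and 2739 to 2892 TPM on day 5. Their day 5 sums lay wholly above day 1 and overlapped with control. Against control on day 5, 5 of the 6 estimates were positive and none was called by limma, with 1 at an unadjusted p below 0.05. The part of these cells in the rise of the interstitial matrix genes was not tested. Of 6 fibroblast and adventitia markers 4 were tested and limma called none, also at an unadjusted p below 0.05 (0 of 4), and Pi16 carried most of their summed 475 to 722 TPM in controls and 616 to 749 TPM on day 5. The defining fibroblast gene Dpt stayed at group means of 0.05 to 0.10 TPM. The parietal epithelium markers summed to 15.5 to 24.7 TPM in controls, 24.0 to 34.1 TPM on day 1 and 24.8 to 29.5 TPM on day 5, and 1 of 5, Cldn1, was called on day 5. On day 1 none of the 5 was called by limma, and 4 passed at an unadjusted p below 0.05. The leukocyte markers summed to 26.3 to 46.3 TPM in controls and 24.99 to 49.2 TPM on day 5, with none of 5 called by limma, 1 of 5 at an unadjusted p below 0.05 and group means of Adgre1 and Cd3e below 1 TPM. On day 1 all 8 proximal tubule and all 6 distal markers had positive estimates, with medians of 0.75 and 1.00, and 1 of them was called. With a tubular marker score as a covariate, the same 6 members were called on day 5.

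**Figure D5:**
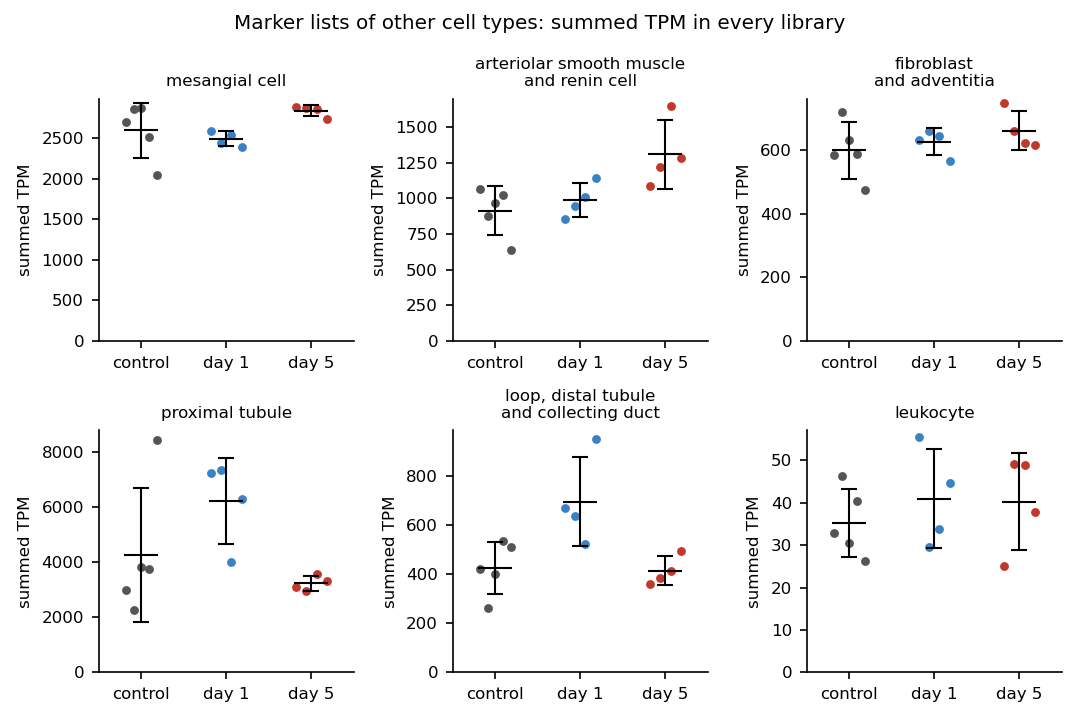
Summed TPM of marker lists of 6 cell types other than podocytes and endothelium, 1 point per library, with the group mean (horizontal line) and SD (bars) for control (n = 5), day 1 MN (n = 4) and day 5 MN (n = 4). The day 5 sums of arteriolar markers lie above all control sums, 1 control library stands apart with 8464 TPM of proximal tubule markers, and leukocyte sums overlap in all groups.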

How the data were processed

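RNA from glomeruli isolated with magnetic beads was sequenced from 13 mice (5 control, 4 day 1 MN, 4 day 5 MN). The submitters' processing notes name FastQC 0.11.9, Trimmomatic 0.39 and kallisto 0.46.2, and the authors assigned reads to GRCm39 transcripts and deposited TPM values, 1 per gene symbol and library. TPM keeps no read number, so the depth of each library and its counting error are unknown.

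Libraries were scaled by median-of-ratios factors (0.955 to 1.04) from the 15772 genes detected in all of them, and log2(TPM + 0.5) was used. Differences and fold changes understate the change of low genes on this scale. The 14322 genes that reached 1 TPM in 4 or more libraries entered limma 3.58.1, run in R 4.3.3 (empirical Bayes with a mean-variance trend, all 3 groups in 1 fit, two-sided), with Benjamini-Hochberg adjustment within each comparison over all tested genes. Calls required an adjusted p-value below 0.05 and an absolute log2 difference above 0.5. Printed TPM are as deposited, and overlap between groups was judged on them, with the scaled values as an alternative chosen after seeing the data. The fit was also run on simulated data, and no error rate from that run is given here. The samples are labelled as separate, and p-values measure the spread between them.

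Values in every library are given for members called in any comparison, the 6 with the highest mean TPM and those whose libraries did not overlap between 2 groups. Of the further lists at most the 4 largest called changes are given with values. The members and lists were chosen with earlier results of these data known. Positions come from GENCODE on GRCm39, and figures were drawn with matplotlib. Alternatives were another pseudocount, scaling, filter, variance model, sample set, a replicate block, a tubular covariate, calls by adjusted p alone and each library left out in turn.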

Additional observations from a re-analysis of the deposited data

Results flagged for a closer look

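In 6 of 114 sets of 1 member and 1 group (5.26%), a single library stood apart from the rest of its group, where chance gives about 1 in 20. Col3a1 was at 3.67 TPM in control 4, against 1.60 to 2.08 TPM in the other controls. Tnxb was at 19.2 TPM in control 2, against 9.19 to 11.8 TPM. Fbln2 was at 13.9 TPM in control 5, against 25.7 to 28.1 TPM. On day 1, Col8a2 was at 2.92 TPM in replicate 1, against 1.18 to 1.34 TPM in the others, and Efemp1 was at 3.14 TPM in replicate 2, against 7.31 to 8.09 TPM. On day 5, Fn1 was at 14.2 TPM in replicate 3, against 5.81 to 7.05 TPM. None of these 6 genes was called in any comparison.

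The effect on day 5 was larger than that on day 1, by the limma contrast of the MN groups, for Col5a3 (by 2.52 on the log2 scale, adjusted p = 0.000304), Col5a2 (by 0.57, adjusted p = 0.0191) and Sparc (by 0.55, adjusted p = 0.000138). Col5a3 passed the filter through its day 5 libraries, so its p-value is not separate from the filter. The day 5 libraries of each of these genes lay above all 4 day 1 libraries. The call of Col5a2 was lost without day 1 replicate 2, without day 5 replicate 2 and without day 5 replicate 3, with an adjusted p of up to 0.0720.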

How the results depend on the processing

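Depth is unknown, the groups are small and control 5 was the lowest control for most members, so differences near the fold threshold are the least firm. All values here come from limma. On day 5, 6 members were called. With the replicate block, which takes out control 5 because no other library shares its number, 4 were called (Col5a3, Sparc, Thbs2 and Tnc), with Col5a2 at 0.47 (adjusted p = 0.0339) and Ltbp1 at 0.51 (adjusted p = 0.0609). Over all tested genes, same-numbered libraries did not deviate together (correlations between -0.0563 and 0.0913), which gave no sign of pairing by number. A pairing that touches few genes could not be seen this way. With 1 library left out the member count was 5 to 8, 5 without control 5 (Col5a2 lost) and 8 without control 2 (Col8a1 and Emilin1 gained). Requiring 1 TPM in every library removed Col5a3 from the test and left 5. Col1a1 was called in a fit of the 2 compared groups (0.80, adjusted p = 0.0456) and without day 1 replicate 3 (adjusted p = 0.0412).

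On day 1 no member was called under any alternative. Over all genes the day 1 count was 13, and it was 6 with no filter, 7 without a trend, 2 in a fit of the 2 compared groups, 149 with the replicate block, 0 with the tubular covariate, and 3 to 218 with 1 library left out (218 without control 5, and 8 or fewer without any other control, day 1 replicate 1, 2 or 4 or day 5 replicate 1 or 2). Over all genes the day 5 count was 460, and 876 by adjusted p alone. Between day 5 and day 1, 3 members were called, 5 after quantile normalization (Igfbp7 and Tnc gained), and 2 to 4 with 1 library left out (2 without day 1 replicate 2, day 5 replicate 2 or day 5 replicate 3). Over all genes that count was 259, and it was 153 when every library had to reach 1 TPM, 414 in a fit of the 2 groups, 104 with the tubular covariate and 150 to 437 with 1 library left out (160 or fewer without day 5 replicate 2 or 3, 164 without day 5 replicate 1, 437 without control 5). The cause of these shifts was not tested. No called difference changed sign. Among single-member results under the alternatives, the sign of estimates that were not called changed in 58 of 864 on day 1, 21 of 864 on day 5 and 18 of 864 between the MN groups, and 836 of 864 on day 5 kept both sign and call.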

Other observations

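Of the 6 members that were not tested, 4 reached 1 TPM in no library, and Lum, the lumican gene, was at most at 0.289 TPM. Vcan, which encodes the large proteoglycan versican, was at 1.59 TPM in control 1 and 1.29 TPM in day 1 replicate 3, and between 0.04 and 0.33 TPM in the other libraries. Mfap4, a microfibril-associated gene, was at 1.15 TPM in day 5 replicate 3 and at or below 0.283 TPM elsewhere.

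Libraries of 1 group differed in how often they were its lowest or highest for the 38 tested members. Control 5 was the lowest control for 27 and the highest for 2. On day 1, replicate 2 was the lowest for 19 and replicate 4 the highest for 17. On day 5, replicate 1 was the lowest for 16 and replicate 3 the highest for 17.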
